A study of Vitis vinifera and Vitis vinifera
Schisandra chinensis with 13 samples.

Results

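The members described here are 4867 of the 8858 predicted miRNA target sites that were listed for the degradome library of this grapevine study. They were chosen as the sites of known miRNAs (those not named as new candidates) whose pairing with the transcript carried an alignment score of 3.5 or 4, whether or not the degradome held reads for them. The alignment score counts mismatches as penalties, so a higher score means looser pairing, and 4 was the highest score in the table. The rest of the table held 2020 sites of known miRNAs with a score under 3.5, called tighter sites here, and 1971 sites of new miRNAs.

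The study compared self-rooted Vitis vinifera 'Hongruibao' (Vv plants) with V. vinifera scions that had grown for 25 years on Schisandra chinensis rootstocks (Vs hybrids). Within each plant, RNA was pooled from leaf, phloem and whole ripe berry, with 3 plants per group for RNA-seq and the same number for miRNA sequencing. The degradome was 1 library made from equal parts of all 6 RNA samples, so it cannot separate Vv from Vs and has no replicate. Its values imply 22945508 raw reads, and 0 reads at a site allow up to 3 reads. The miRNA libraries held between 1027871 and 1738257 counts over the 972 entries used, and between 21471 and 22154 of 25819 genes were above 0 FPKM in each RNA-seq library.

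In plants, a miRNA is carried by an ARGONAUTE protein, which cuts a well-paired transcript near the middle of the duplex. The cut leaves a downstream fragment with a free 5' end, and degradome sequencing reads such ends, which also arise from ordinary RNA decay. A site was listed as detected when at least 1 degradome read began at the expected cleavage position. The caller sorted detected sites into categories. Category 0 is a position with more than 1 read that is the single highest position of its transcript, category 2 lies above the transcript's median but below its maximum, and category 4 is a single read.

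The loosely paired sites belonged to 377 named miRNAs with 342 distinct sequences in 61 families, and to 3588 transcripts of 2254 gene loci. They span very different kinds of small RNA, which the sequences below show. All are mature miRNA sequences from the deposited table, written as DNA 5′ to 3′, with the seed (bases 2 to 8) in capitals. The first set was predicted for the sites with the most reads. The 3 miR482 forms have 3 different seeds although their 3′ parts are alike.

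mtr-miR482-3p_L+1_2ss8TA20GT: tCTTACCAacacctcccattcc
vvi-miR482: tCTTTCCTactcctcccattcc
sly-miR482e-3p_2ss5TG20AT: tCTTGCCTactcctcccattcc
vvi-miR3624-3p: tCAGGGCAgcagcatactact
tcc-miR166b_R+2: tCGGACCAggcttcattcccca
ppe-miR169d: tGAGCCAAggatgacttgcca
vvi-miR398b: tGTGTTCTcaggtcgcccctg
vvi-miR395a: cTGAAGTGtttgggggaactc

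The second set had the most predicted sites or the most detected ones. The first of them repeats a short motif and is 18 nt long.

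ath-miR5658_R-3_1ss13AT: aTGATGATgatgttgatg
pgi-miR6138_L-3R-2_1ss19AT: gTTTGGATtgaaggattga
stu-MIR530-p5: aTTTGCACctgcacctta
vvi-MIR156a-p3: gCTCTCTCttcttctgtcatc
vvi-miR396b_R+1_1: tTCCACAGctttcttgaactg

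Degradome reads were found at 795 of the 4867 loosely paired sites, or 16.3% (95% Wilson interval 15.3 to 17.4%), where all predicted sites in the table gave 17.6%. Among the tighter sites of known miRNAs the share was 32.0% (30.0 to 34.1%). Category 0 was reached by 121 loosely paired sites, 2.49% (2.08 to 2.96%), against 12.4% (11.1 to 13.9%) of the tighter sites and 4.2% of all sites. These intervals cover counting error only, and the sites are not independent, since isoforms of a gene and near-identical miRNAs can share reads. With each gene locus and miRNA family counted once, 308 of 2395 pairs were detected (12.9%, 11.6 to 14.3%), and 41 of them in category 0 (1.71%). Some genes are listed under several locus names. By annotated gene name the category 0 pairs were 39.

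Detection and category 0 were both lower just inside the threshold than just outside it. At a score of 3, just outside the rule, 24.4% of 960 sites were detected and 9.06% were in category 0. At 3.5 the values were 17.1% and 2.73% of 1173 sites, and at 4 they were 16.1% and 2.41% of 3694 sites. The 2 scores of the loosely paired class therefore lay within each other's intervals on both measures.

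**Figure D1:**
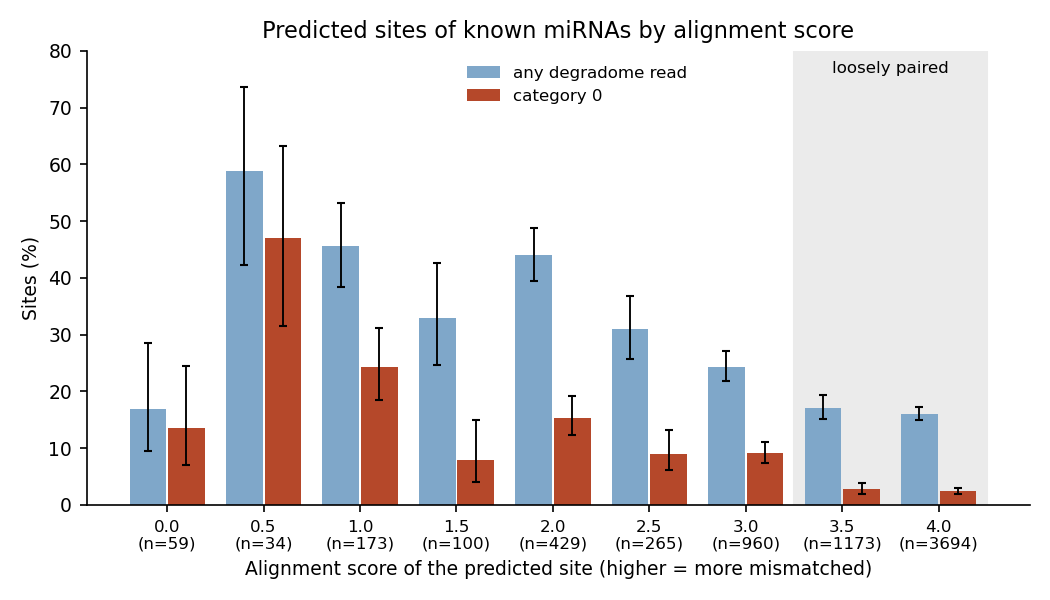
Share of predicted sites of known miRNAs (y axis, %) by alignment score (x axis, number of sites in brackets), with any degradome read (blue) or in category 0 (red); bars are shares and error bars 95% Wilson intervals. In the shaded loosely paired class 17.1% and 16.1% of sites had reads, and 2.73% and 2.41% were in category 0.

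Most detected loosely paired sites rested on few reads. The median was 2 raw reads (quartiles 1 and 6), the highest 2578, and 330 sites (41.5%) had a single read. Tighter detected sites had a median of 6 raw reads (quartiles 3 and 38), and 13.8% of them had 1 read. Of the loosely paired detected sites, 324 were in category 2, 330 in category 4, 16 in category 3 and 4 in category 1. The 121 category 0 sites had a median of 40 raw reads. The caller's own p was 0.05 or less at 103 of the 795 detected sites, 98 of them in category 0, and at 35.2% of the tighter detected sites. At 141 loosely paired sites there were at least 10 raw reads, and at 45 there were at least 100.

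Part of this detection lay at positions that were also predicted for a better paired miRNA. At 148 of the 795 detected sites (18.6%) the cleavage position was also that of a detected tighter known site on the same transcript. These shared positions held 65 of the 121 category 0 sites, so that 43.9% of shared positions were in category 0 and their median was 6 raw reads. At the 647 positions that were not shared, 8.66% were in category 0, 48.2% were in category 4 and the median was 2 raw reads. Counting every site, detected or not, whose alignment overlapped a tighter known site by at least 10 bases, 23.9% of 666 were detected, against 15.1% of the other 4201.

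Whether detection followed the miRNA or the transcript depended on which reads were counted. Any-read detection followed no single order over the lower miRNA levels. It was 14.6% for sites of miRNAs with a mean under 1 CPM (a count scaled to a common library total), 17.1% from 1 to 10 CPM, 12.1% from 10 to 100 CPM and 17.9% from 100 to 1000 CPM, and reached 28.1% (24.2 to 32.4%) at 1000 CPM and over. Over the 342 sequences the rank correlation of the detected share with mean CPM was 0.0818, a description, since near-identical sequences share sites. Category 0 was higher in each successive bin of miRNA level, from 0.201% (3 of 1490 sites) under 1 CPM through 1.66%, 2.65% and 3.91% to 9.01% (41 of 455 sites) at 1000 CPM and over. With each locus and family once, at the summed CPM of its sequences, category 0 was found for 0 of 879 pairs under 1 CPM and 0 of 419 pairs from 1 to 10 CPM, which allows shares of up to 0.435% and 0.908%. It was found for 22 of 232 pairs (9.48%) at 1000 CPM and over.

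Transcript level went the other way round. Among the 4367 sites whose gene had an FPKM value, 5.20% were detected under 1 FPKM, 14.4% from 1 to 10 FPKM, 28.2% from 10 to 100 FPKM and 53.8% (42.9 to 64.5%) of 78 sites at 100 FPKM and over. The rank correlation over these sites was 0.244, again as a description over sites that share genes. Category 0 showed no such order, with 1.57%, 3.36%, 1.32% and 17.9% in the same bins and a rank correlation of 0.0028. The 14 category 0 sites in the highest bin were all rows of a single gene, MSTRG.439, described below. With each locus and family once, that bin held 1 category 0 pair of 41. The 500 sites whose transcript had no FPKM value were detected in 6.60% of cases. Not all of these are on unmeasured genes. For instance, VIT_12s0121g00060 had no value under that name but is the annotated gene of MSTRG.3551, at 1.06 FPKM. Of 179 sites on annotated non-coding RNA transcripts, 1 was detected.

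**Figure D2:**
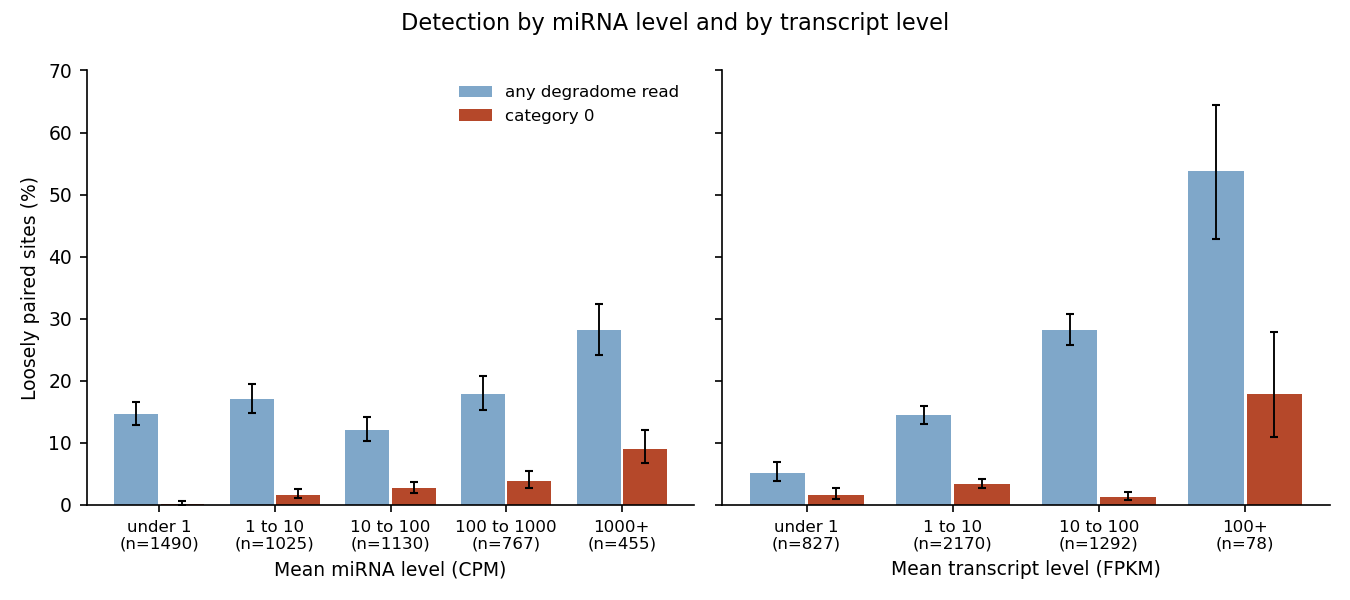
Share of loosely paired sites (y axis, %) with any degradome read (blue) or in category 0 (red), by mean CPM of the miRNA (left) and mean FPKM of the target gene (right) over 6 libraries; bars are shares, error bars 95% Wilson intervals, and the number of sites is in brackets. Any-read detection climbs from 5.20% to 53.8% with transcript level, and category 0 from 0.201% to 9.01% with miRNA level.

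Loosely paired and tighter sites also differed at intermediate transcript levels. From 1 to 10 FPKM 14.4% of loosely paired and 35.6% of tighter sites were detected, and from 10 to 100 FPKM 28.2% and 48.0%. Category 0 in the same bins was 3.36% against 16.7%, and 1.32% against 13.3%, so the classes were apart within both bins by more than their intervals. Under 1 FPKM 43 of 827 loosely paired and 41 of 341 tighter sites were detected, while the category 0 shares of 1.57% and 3.52% had overlapping intervals. The order turned round at 100 FPKM and over, where 42 of 78 loosely paired sites (53.8%, 42.9 to 64.5%) and 8 of 23 tighter sites (34.8%, 18.8 to 55.1%) were detected, with 14 and 0 in category 0, although the detection intervals overlapped. Among sites of miRNAs at 1000 CPM and over the loosely paired ones were again the lower, with category 0 at 9.01% of loosely paired and 35.0% of tighter sites.

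The raw reads at detected sites had rank correlations of 0.224 with CPM over 795 sites and 0.130 with FPKM over 762 sites. Of the 41 category 0 pairs 31 were named with a miRNA at 100 CPM or more, and 1 with a miRNA under 1 CPM. The miRNA named for a pair is that of lowest score, then of highest CPM, a rule that favours abundant ones. By summed CPM, 313 of all 2395 pairs lay from 100 to 1000 CPM and 232 at 1000 CPM and over. These held 11 and 22 of the category 0 pairs.

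**Figure D3:**
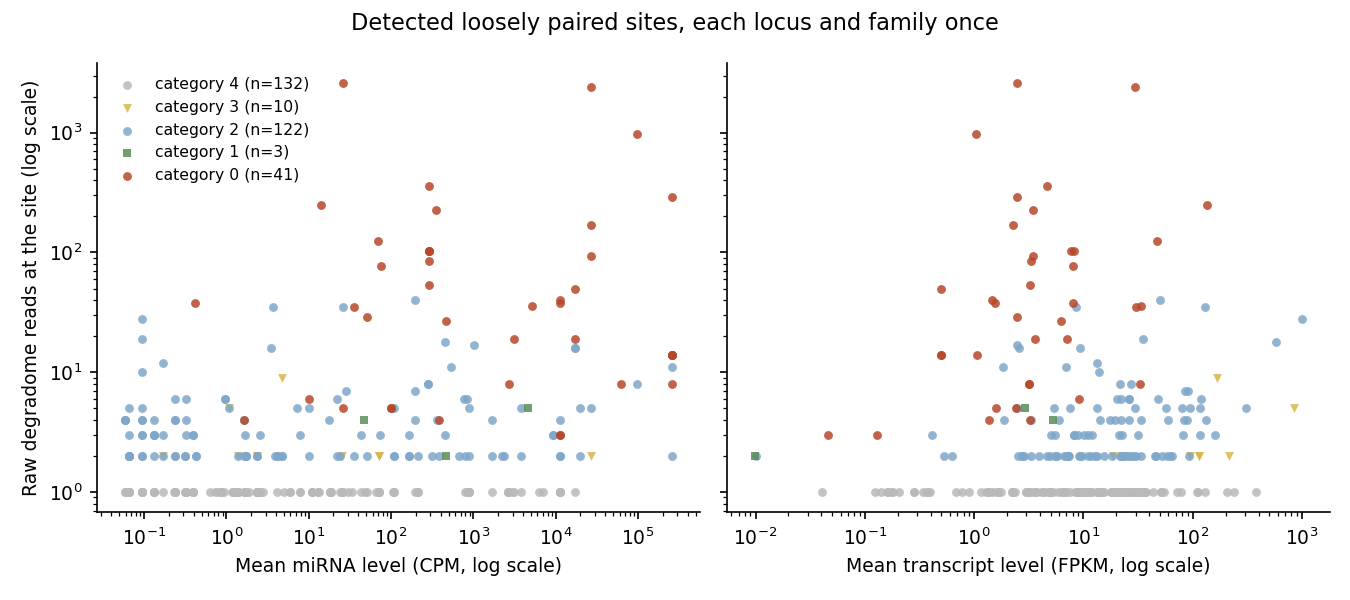
Raw degradome reads (y axis, log scale) of the 308 detected locus and family pairs against mean miRNA level (left, CPM, log scale) and mean transcript level (right, FPKM, log scale; pairs without an FPKM value are left out); each point is 1 pair, coloured by its best category. The 41 category 0 pairs reach 2578 reads, and the 132 pairs of category 4 have 1 read each.

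Several of the miRNAs with the most predicted sites were hardly sequenced. The sequence ath-miR5658_R-3_1ss13AT had 415 sites at 274 loci, of which 44 (10.6%, 7.99 to 13.9%) were detected. Its estimated count was 0.5 in 1 Vs library and 0 in the other 5 libraries. None of its sites was in category 0, 24 of the 44 rested on 1 read, and the highest had 5 reads. The sequence pgi-miR6138_L-3R-2_1ss19AT, with a count of 1 in each of 2 libraries and 0 elsewhere, had 22 detected sites of 103 (21.4%), again with none in category 0. The others with many sites were ppe-MIR169h-p3_2ss6TA17GC (8 of 145 detected), ath-MIR156j-p5_2ss14CT19TC (3 of 113, with counts in all 6 libraries, at 2.40 to 51.6 CPM) and vvi-MIR164c-p3_2ss14TA18GT (14 of 108). Those with many detected sites were stu-MIR530-p5 (22 of 95), vvi-MIR156a-p3 (20 of 87) and vvi-miR396b_R+1_1 (19 of 42). Only the last of these 8 miRNAs had category 0 sites, 7 in number, and it was also the most abundant of them, with a mean of 11366 CPM.

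Sites also differed by the kind of entry and by length, which the choice of members did not use. Sequences identical to a miRBase entry had 26.0% of 524 sites detected and 7.25% in category 0. Variants of a miRBase sequence had 18.3% of 2340 sites detected and 3.46% in category 0. Sequences marked as new relative to miRBase had 11.5% of 2003 sites detected, and 2 of these sites were in category 0. None of the 1078 sites of 18 nt sequences or the 372 sites of 19 nt sequences was in category 0, while 2.85% of 1927 sites of 21 nt sequences, 10.5% of 476 sites of 22 nt sequences and 15 of 75 sites of 23 nt sequences were. Length and abundance were not separated here.

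Detection was unevenly spread over families. Of 61 families, 45 had a detected site and 18 a category 0 site. The 39 families with at least 20 sites covered 4698 sites, and their detected shares ran from 0 to 69.6%. The largest was miR169, whose textbook targets are NF-YA transcription factors, with 96 of 585 sites detected (16.4%) and 22 in category 0. It was followed by miR396, which targets GROWTH-REGULATING FACTOR (GRF) genes, with 102 of 459 (22.2%) and 26 in category 0. The families miR156, a regulator of SPL genes and phase change, with 41 of 378 (10.8%), and miR172, which targets AP2-like genes, with 27 of 260 (10.4%), were below the share over all members.

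The highest shares, counted over sites, belonged to smaller families. For miR3624, 16 of 23 sites were detected (69.6%, 49.1 to 84.4%) and 13 were in category 0. For miR3627, 9 of 24 were detected (37.5%), none in category 0. For miR482, which targets NBS-LRR disease resistance genes, 13 of 37 were detected (35.1%) and 9 were in category 0. For miR399, a phosphate starvation miRNA, 33 of 99 were detected (33.3%) and 6 were in category 0. For miR395, the sulfate assimilation miRNA, 45 of 145 were detected (31.0%), but 40 of them with 1 read and 1 in category 0. For miR166, which targets HD-ZIP III genes, 28 of 100 were detected (28.0%), 20 of them in category 0, with a median of 93.5 raw reads. Several sites can lie on the same gene locus. Loci with a detected site were 5 of 9 for miR3624, 2 of 11 for miR3627 and 10 of 29 for miR482. They were 13 of 55 for miR399, 4 of 21 for miR395 and 10 of 34 for miR166. No site was detected for miR845 (0 of 42, an interval up to 8.38%) or for miR403, miR3630 and miR8005 (0 of 20 each, up to 16.1%). Other families with at least 20 sites lay between 2.38% (miR162) and 26.1% (miR319).

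**Figure D4:**
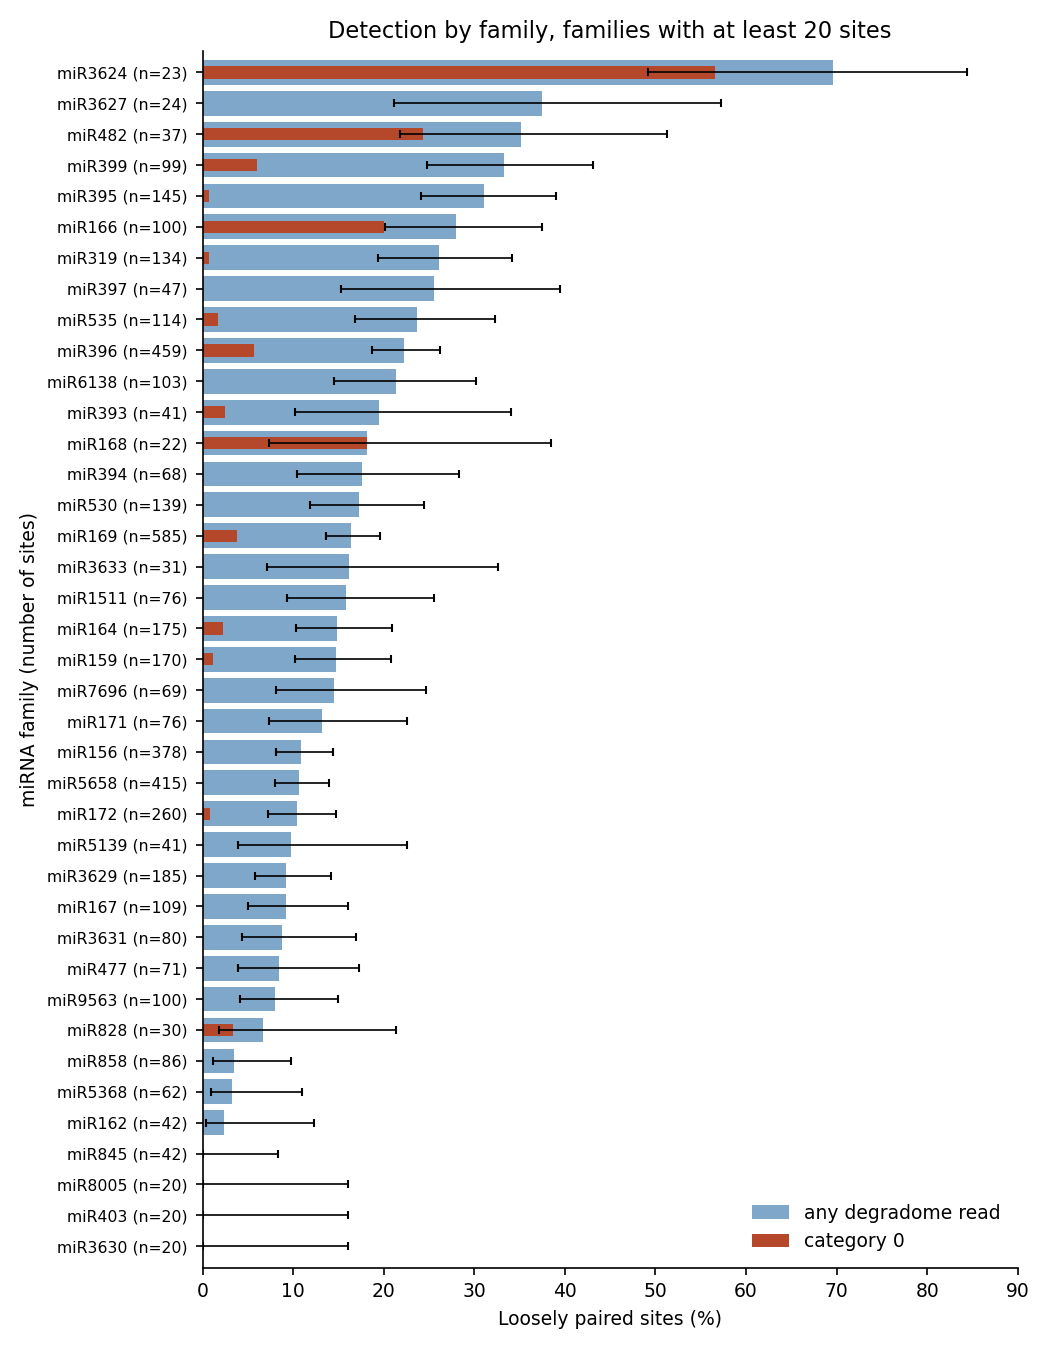
Share of loosely paired sites (x axis, %) with any degradome read (blue, with 95% Wilson intervals) and in category 0 (red) for the 39 families with at least 20 sites (y axis, number of sites in brackets). The order runs from miR3624 at 69.6% to 4 families with no detected site, and miR166, miR482, miR3624 and miR168 have category 0 for most of their detected sites.

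The site with the most reads was that of sly-miR482e-3p_2ss5TG20AT on MSTRG.4790, which overlaps the annotated gene VIT_13s0047g00100, at transcript position 483. It held 2578 raw reads, or 859 in the authors' normalized reads. The same position was also that of the tighter site of mtr-miR482-3p_L+1_2ss8TA20GT, which had a mean of 261415 CPM against 26.0 CPM for the loosely paired form. The abundant form was at 248625, 300486 and 216435 CPM in the Vv libraries and 233262, 313017 and 256664 CPM in the Vs libraries, and the groups overlapped. It was itself the miRNA predicted for a loosely paired site on MSTRG.4787, of the same annotated gene, with 291 reads. Another site, of vvi-miR482 on MSTRG.20606, held 969 reads at position 312 and was shared with no tighter site. MSTRG.20606 carries no gene name and was at a mean of 1.05 FPKM. In all, miR482 had 7 of the 41 category 0 pairs. They lay on 5 distinct genes, the unnamed MSTRG.20606 included, since VIT_13s0047g00100 and VIT_12s0121g00060 were each listed under 2 locus names. The term ADP binding, which is typical of NBS-LRR proteins, was carried by 3 of the loci.

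The site of vvi-miR3624-3p on MSTRG.21654 held 2333 reads at position 466 and was not shared with a tighter site. The gene is annotated with metal ion transport, and 2 further category 0 loci of this miRNA, MSTRG.22503 (170 reads) and MSTRG.21301 (94 reads), carry the same terms. The Vv libraries had 28.4, 39.3 and 71.1 FPKM of MSTRG.21654 and the Vs libraries 14.7, 12.4 and 10.4 FPKM, so every Vs library was below every Vv library. The log2 difference of Vs from Vv was -1.72 (SE 0.37) on the log2(FPKM + 1) scale, which did not pass limma's test over all genes (adjusted p = 0.14). Its miRNA was at 33073, 65614 and 12292 CPM in Vv and 8089, 21406 and 21804 CPM in Vs, with overlapping groups. Among all 15447 genes tested, 31.8% had groups without overlap, as MSTRG.21654 did.

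The miR166 sites with the most reads lay on HD-ZIP III genes, which set vascular and leaf polarity, at positions that tighter miR166 forms shared. REV (MSTRG.16608) had 360 raw reads at position 1190. ATHB-8 (MSTRG.14191), ATHB-15 (MSTRG.20266) and VIT_09s0002g03740, which also carries the symbol ATHB-15, each had 102 raw and 25.5 normalized reads. Whether these were the same reads, and whether MSTRG.20266 and VIT_09s0002g03740 are the same gene, was not tested. The miRNA named for these sites, tcc-miR166b_R+2, a variant 22 nt long, had all 11 of its loosely paired sites in category 0. It was at 250, 152 and 472 CPM in Vv and 360, 198 and 317 CPM in Vs.

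The remaining sites with the most reads were predicted for other families and shared with no tighter site. MSTRG.439, annotated with regulation of jasmonic acid signalling, had 248 reads at position 1253 for ppe-miR169d and detected miR169 sites in all 14 of its rows. It is not a gene of the textbook NF-YA class, and its level was high, at a mean of 135 FPKM in each group (SD 37.4 in Vv and 15.1 in Vs, n = 3), while the miRNA had a mean of 13.9 CPM. MSTRG.2395, an electron carrier by its annotation, had 227 reads for vvi-miR398b. MSTRG.15623 had 124 reads for vvi-miR395a and is annotated as sulfate adenylyltransferase, the textbook miR395 target. Of the 41 category 0 pairs 24 were at positions not shared with a tighter known site.

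Some pairs with a very abundant miRNA had no reads. The 6 undetected pairs with the highest product of miRNA CPM and gene FPKM were miR482 with MSTRG.8873 (20.7 FPKM) and MSTRG.311 (5.97 FPKM), vvi-miR3623-5p with MSTRG.3287 (1.76 FPKM), vvi-miR168 with MSTRG.7320 (82.6 FPKM), and vvi-miR159c with MSTRG.13932 (5.95 FPKM) and MSTRG.4141 (5.43 FPKM). MSTRG.3287 is annotated as a 3-oxoacyl-ACP synthase and MSTRG.4141 as an RNA helicase. Only MSTRG.8873 and MSTRG.7320 were above the median of 6.19 FPKM at sites outside the textbook target classes. The miRNAs of the 6 pairs had means from 5129 to 261415 CPM, all 6 sites had a score of 4, and none overlapped a tighter site. By contrast, mtr-miR482-3p_L+1_2ss8TA20GT had a category 0 site with 14 reads on VIT_11s0037g01270, a gene at 0.50 FPKM.

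Summed over families, sites on transcripts annotated as the textbook target class of a family were detected at a higher share than other sites. Over the 26 families with such a class, 103 loosely paired sites were on transcripts whose symbol or annotation named the class, and 69 of them were detected (67.0%, 57.4 to 75.3%). On other transcripts of the same families 499 of 3145 were detected (15.9%, 14.6 to 17.2%). Category 0 was reached by 32 and 70 sites, respectively. The order did not hold in every family. Of the 26 families 14 had no loosely paired class site, 8 had a higher share on class sites and 4 a lower one. A class target without a naming symbol or annotation was counted among the other transcripts. For instance, miR171 had no class site in either score class, yet 63 of its 71 tighter sites were detected. MSTRG.9343, annotated with gene silencing by RNA, was also counted among the other transcripts, for miR168. The share on other transcripts is therefore not one of non-targets. In the 4 families with a lower share no class site was detected, with 0 of 14 against 12 of 33 other sites for miR397 and 0 of 4 against 27 of 256 for miR172. The values were 0 of 2 against 10 of 107 for miR167 and 0 of 2 against 7 of 15 for miR408. All 12 detected miR397 sites lay on 1 locus, while its 14 class sites covered 10 loci. The class sites covered few genes, 36 locus and family pairs, of which 18 were detected. They included SPL3 (MSTRG.1320, 2 reads) for miR156, SPL2 (MSTRG.2652, 5 reads) for miR535, TCP2 (MSTRG.1595, 4 reads) and TCP10 (MSTRG.3080, 1 read) for miR319, and the GRF gene AtGRF9 (MSTRG.7202, 40 reads) for miR396. Of the 69 detected class sites, 61 were at a position shared with a tighter known site. Class sites that overlapped a tighter site were detected in 63 of 79 cases, and other sites that overlapped one in 93 of 469. Without an overlap, 6 of 24 class sites were detected. The median level of the class sites' genes was 4.62 FPKM, against 6.19 FPKM at the other sites, and the median of their miRNAs was 213 CPM against 13.9 CPM. The part of miRNA level in this difference was not tested.

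The group comparison asks whether these miRNAs or their predicted targets differed between Vs hybrids and Vv plants. Of 326 distinct miRNA entries, 197 passed the count filter, and 9 of these passed edgeR's quasi-likelihood test with Benjamini-Hochberg adjustment over all entries tested. Over all 332 entries 6.02% were called, and among the 197 members 4.57%. Without a single library the count was 7 (Vv replicate 1), 2 (Vv replicate 2), 7 (Vv replicate 3), 6 (Vs replicate 1), 0 by edgeR (Vs replicate 2, with 45 at an unadjusted p under 0.05) or 1 (Vs replicate 3). At most 4 of the 9 miRNAs were among the calls of any of these fits.

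Lower in Vs (5, where 3.92% of all entries were called lower) were vvi-miR164a, vvi-miR390, ptc-miR403a_L+1, vvi-MIR167c-p3 and vvi-MIR319b-p5. Higher in Vs (4, where 2.11% of all entries were called higher) were vvi-MIR477a-p5, vvi-miR169v, vvi-MIR169v-p3 and aly-miR408-3p_L-1R+4. For vvi-miR164a the Vv libraries were at 5305, 5346 and 4166 CPM and the Vs libraries at 1411, 1387 and 1151 CPM, with no overlap (log2 difference -1.91, SE 0.35, adjusted p = 0.016 by edgeR). Over the leave-one-out and other alternatives its adjusted p by edgeR or DESeq2 ran from 2.45e-06 to 0.0805. The opposite case was vvi-miR169v, at 16.3, 14.1 and 2.09 CPM in Vv and 263, 78.6 and 71.2 CPM in Vs, again with no overlap (log2 difference 3.64, SE 0.85, adjusted p = 0.038 by edgeR). It passed in none of the 6 fits without a single library, with adjusted p by edgeR from 0.0598 to 0.0937. A lack of overlap was common by itself, at 108 of all 332 entries tested (32.5%) and 56 of the 197 members (28.4%).

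**Figure D5:**
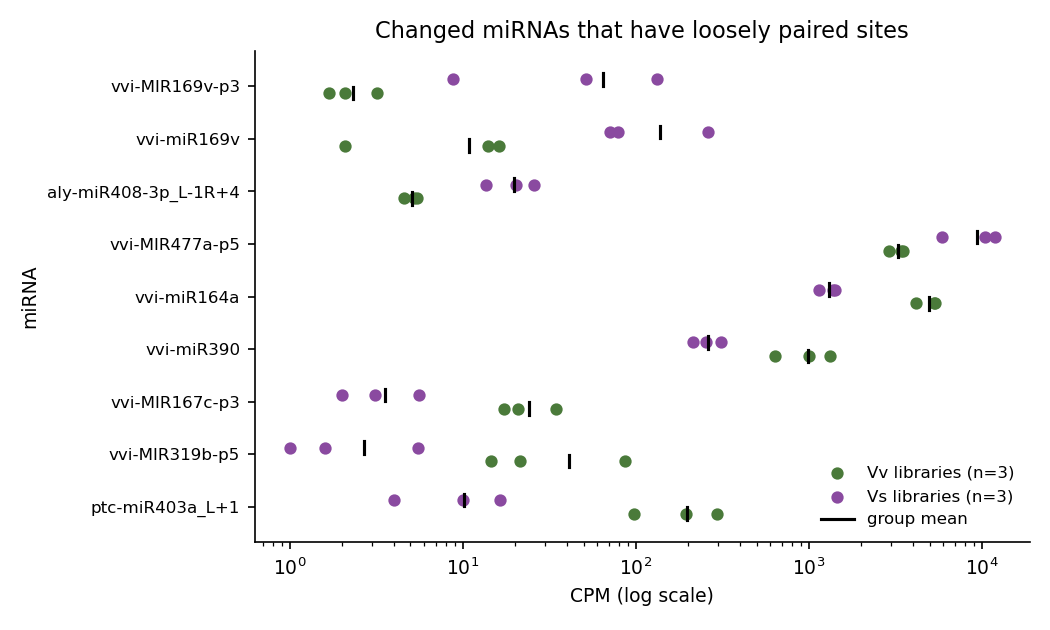
CPM (x axis, log scale) of the 9 miRNAs with loosely paired sites that passed edgeR's test (y axis) in each of the 3 Vv (green) and 3 Vs (purple) libraries; points are libraries and black ticks group means. In all 9 the groups do not overlap, with 5 lower and 4 higher in Vs, and vvi-miR164a falls from a mean of 4939 to 1316 CPM. Groups also do not overlap for 32.5% of all 332 entries tested.

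These 9 miRNAs had few detected loosely paired sites. There were 4 of 15 for vvi-miR164a, 2 of 4 for vvi-miR169v, 2 of 7 for vvi-MIR319b-p5, 1 of 11 for vvi-MIR477a-p5 and none for the other 5. The category 0 sites among them were those of vvi-miR164a on MSTRG.6725, annotated with regulation of transcription, with 19 reads at position 826. The Vv libraries had 14.8, 13.6 and 5.35 FPKM of this gene and the Vs libraries 0.64, 3.70 and 4.45 FPKM, so gene and miRNA were both lower in every Vs library. The gene did not pass limma's test (log2 difference -1.71, SE 0.58, adjusted p = 0.20). The other detected targets of these miRNAs had log2 differences from -0.31 to 0.12 and adjusted p of at least 0.42 by limma.

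Of 1376 tested genes with a loosely paired site, 7 passed limma's test over all genes (0.509%, where 0.557% of all 15447 genes tested were called), 2 higher and 5 lower in Vs, where 0.278% of all genes were called in each direction. Without a single library the count was 3 (Vv replicate 1), 2 (Vv replicate 2), 3 (Vv replicate 3), 6 (Vs replicate 1), 3 (Vs replicate 2) or 7 (Vs replicate 3), and at most 3 of the 7 genes were among the calls of any of these fits. In the same order, the calls higher and lower in Vs were 2 and 1, 2 and 0, 2 and 1, 5 and 1, 1 and 2, and 5 and 2. Higher calls thus outnumbered lower ones in every fit but that without Vs replicate 2, unlike in the main fit. Genes with loosely paired sites had a median log2 difference of -0.30, and all genes tested one of -0.25. Under median-ratio scaling these became -0.05 and -0.01, so the shift was one of all genes, and the calls among these genes became 2 higher and 2 lower (43 higher and 20 lower over all genes, against 43 and 43 as deposited). Of 243 tested genes with a detected site, 1 passed. This was MSTRG.12158, which overlaps 3 annotated genes without a described function, at 3.79, 4.63 and 5.33 FPKM in Vv and 0.58, 0.59 and 0.41 FPKM in Vs (log2 difference -1.86, SE 0.20, adjusted p = 0.031 by limma). Its adjusted p by limma without each single library ran from 0.061 to 0.16. All 4 of its rows were detected for vvi-miR3634-3p with 16 raw and 3.2 normalized reads in category 2. That miRNA was at 20987, 24441 and 10623 CPM in Vv and 9961, 15289 and 20399 CPM in Vs, with overlapping groups (adjusted p = 0.67 by edgeR). The 6 other genes that passed had no detected site. They included the heat shock factor gene ATHSFA2 (MSTRG.14022), named here after its values were seen, which was at a mean of 1.86 FPKM (SD 1.04, n = 3) in Vv and 46.3 FPKM (SD 5.92, n = 3) in Vs and had 2 undetected miR5658 sites.

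Of the genes of the RNA silencing pathway itself, which make, load and amplify small RNAs, 14 were matched by symbol and 12 were tested, and none passed limma's test in either direction (2 at an unadjusted p under 0.05, and 0 adjusted with a trended variance). Their lowest adjusted p was 0.17, for DCL1, the enzyme that cuts miRNA precursors, at a mean of 12.5 FPKM in Vv and 6.23 FPKM in Vs. One of the 14, TGH, had loosely paired sites, 12 in number, and none was detected. Of the markers of the pooled organs, 7 leaf genes (LHC and NPQ4) and 1 phloem gene (APL) were matched, and no berry gene. The summed leaf markers were at 601 to 4155 FPKM in Vv and 4781 to 7382 FPKM in Vs, without overlap, and the 5 that were tested were all above 0 in log2 difference with none passing limma's test (lowest adjusted p = 0.25, and 0 at an unadjusted p under 0.05). APL did not pass limma's test either (adjusted p = 0.23). For LHCA1, LHCA2, LHCA4 and LHCB5 the paper reports the opposite direction, lower in Vs hybrids. That conflict was not resolved here. The part of organ share in the group differences above was not tested. In pooled RNA, fewer cells of a type and less RNA per cell cannot be told apart.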

How the data were processed

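The deposited table of degradome sites was read as given. The authors predicted sites and matched degradome reads to them with CleaveLand, and gave per site an alignment score, raw and normalized read signal, a category and a caller p-value. Raw reads are counts, and the library total was implied by the ratio of the 2 normalized columns. Their genome build was not given in any source used here. The authors' miRNA table holds estimated counts, since a read that fits several loci is divided over them, and each distinct entry was used once. The authors' gene table holds FPKM values made with HISAT and StringTie. A supplementary list of the study sets FPKM values beside other gene IDs, so the annotation in the deposited table was checked. Of 18502 genes, 94.1% lay on the most frequent scaffold among genes whose protein accessions share the first 5 characters. That check used no FPKM value, so it cannot decide which pairing of FPKM values with gene IDs is right. The deposited pairing was used, and every transcript level here rests on it. Some lines of the miRNA table are not analysed here.

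Detection shares were computed over sites with 95% Wilson intervals. Estimated counts were rounded to whole numbers, filtered by expression, scaled by TMM and tested with edgeR 4.0.16 (quasi-likelihood), and mean CPM over the 6 libraries gave the miRNA level. FPKM values were tested with limma 3.58.1 on log2(FPKM + 1) for genes whose mean reached 1 FPKM, which understates the change of low genes. P-values were adjusted by Benjamini-Hochberg over all entries or genes, with a threshold of 0.05. Both tests were tested on simulated data. DESeq2 1.42.0 was an alternative. Since each group has 3 plants, p-values measure the spread between these plants' pools. The site named for a locus and family is the one of lowest score, then of highest CPM. Sites named are the 12 category 0 pairs with the most reads and the 6 undetected pairs with the highest product of levels. Families with at least 20 sites, the 5 miRNAs with the most sites and the 5 with the most detected sites, called miRNAs, the called gene with a detected site and families with a detected textbook target are named as well. The members and lists were chosen with earlier results of these data known.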

Additional observations from a re-analysis of the deposited data

How the results depend on the processing

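The detected share of 16.3% became 12.9% with each locus and family once, 9.55% with at least 2 raw reads, 9.23% in categories 0 to 2, 2.12% at a caller p of 0.05 or less, 17.7% at a score of 3 or higher and 13.7% without shared positions, a setting that can only lower it, since only detected sites can share a position. It was 2.49% in category 0, an alternative chosen after seeing the data. The rank correlation with miRNA level (0.0818) became 0.132 with at least 2 reads and 0.109 with each locus and family once. Chosen after seeing the data, it was 0.193 for category 0 and 0.0391 for sites that overlapped no tighter site. The rank correlation with transcript level (0.244) became 0.212 with at least 2 reads and 0.199 for genes of at least 1 FPKM. Chosen after seeing the data, it was 0.0028 for category 0 and 0.275 without overlapping sites. Without each library in turn they ran from 0.078 to 0.0857 and from 0.240 to 0.247.

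The 9 called miRNAs became 27 with DESeq2, all 9 among them, and 0 to 7 without each library in turn. The 7 called genes became 4 with median-ratio scaling, 4 with quantile normalization and 2 to 7 without each library. Deviations of same-numbered plants from their group means were little correlated (-0.18, 0.01 and -0.11 for miRNAs and 0.17, -0.05 and 0.04 for genes). With 3 plants per group these values cannot exclude a pairing by number. With a replicate block 0 miRNAs passed edgeR's test (43 at an unadjusted p under 0.05) and 0 genes passed limma's (284). None of these 9 miRNAs and 7 genes changed direction in any alternative run, which was not tabulated for the other named ones. The single degradome library limits every detection value, since 795 sites rest on a median of 2 reads.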

Other observations

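Other category 0 sites outside the naming rule were picked out after their values were seen. The grapevine miRNA vvi-miR168, whose family targets the silencing effector gene AGO1, had 36 reads on MSTRG.9343, which is annotated with gene silencing by RNA, and no tighter site shared the position. All 4 detected loosely paired miR168 sites were in category 0. For miR3634, all 10 loosely paired sites at 5 locus names were detected (100%, 95% Wilson interval 72.2 to 100%), 4 of them in category 0. Of these names, VIT_19s0085g00480 is also an annotated gene of MSTRG.12158, and each had 16 reads. The interval takes the rows as independent, which they are not. For vvi-miR3623-5p 6 of 8 sites were detected.

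The same 8 reads on MSTRG.5225, annotated with transcription and cell differentiation, were listed for both vvi-miR159c and vvi-miR319e, and a tighter site shared the position. The sequence vvi-MIR169b-p3 had 5 reads in category 0 on MSTRG.2728, whose symbol MIR169_2 names a miRNA precursor, and 5 reads on a non-coding RNA transcript, which was the only detected site on that kind of transcript.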
